A study of Mus musculus with 12 samples.

Results

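Of 35 listed genes that are targets of the hypoxia-inducible factor HIF-1 or encode enzymes of glycolysis, 33 were measured in whole mouse skin, out of 18193 genes tested. The list was drawn up from the genes' known functions, but with earlier results of these data known. Each gene was read from the probe set that is annotated to it alone and has the highest mean signal over the 12 arrays. *Gpi1* and *Eno1* were not measured here, because no probe set in the annotation used is assigned to either gene alone. *Ero1l* was read under its newer symbol *Ero1a*. The 12 arrays came from 4 groups of 3 biological replicates: *Ahr*-/- mice (AhR KO in the labels, lacking the aryl hydrocarbon receptor in all cells) after 2 days of imiquimod (IMQ), untreated *Ahr*-/- mice, *Ahr*+/- mice (AhR HET, littermate controls with 1 intact allele) after 2 days of IMQ, and untreated *Ahr*+/- mice. IMQ, a Toll-like receptor agonist, was given as a cream on shaved back skin and induces psoriasis-like inflammation. The untreated mice are labelled as day 0, and no group that received cream without IMQ was analysed here, so IMQ, the cream and the days of handling cannot be told apart. No source used here gives the age or sex of these mice.

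HIF-1 is a heterodimer of HIF-1α, encoded by *Hif1a*, and ARNT, which is also the partner of the aryl hydrocarbon receptor. In oxygenated cells, prolyl hydroxylases of the EGLN family mark HIF-1α for destruction through the VHL protein, so HIF-1α is regulated chiefly at the protein level; in hypoxia, and in inflamed tissue, it accumulates and binds hypoxia response elements in genes for glucose uptake, glycolysis, pH control and blood vessel growth. Glycolysis splits glucose to pyruvate, and lactate dehydrogenase and monocarboxylate transporters dispose of the product as lactate. The arrays measured RNA only, so neither HIF-1α protein nor flux through the pathway was observed.

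The signals are log2 values, on which a difference of 1 is a doubling, and they are not comparable between probe sets. A gene was called where limma's adjusted p was under 0.05 and the change was at least 1.5-fold. *Ahr* itself was read at 9.07 to 9.87 in IMQ-treated *Ahr*-/- skin, 11.29 to 11.44 in untreated *Ahr*-/- skin, 9.79 to 10.27 in IMQ-treated *Ahr*+/- skin and 10.11 to 11.30 in untreated *Ahr*+/- skin. No source used here gives the place of its probes relative to the deleted part of the gene, so this signal checks no label. In IMQ-treated *Ahr*-/- replicates 1 and 2 the 3′ probe set for *Gapdh* exceeded the 5′ one by 1.17 and 1.52, against 0.14 to 0.53 on the other 10 arrays, which can come from shorter RNA, although RNA length was not measured. Markers of the growth phase of the hair follicle averaged 12.39 in untreated *Ahr*+/- replicate 2 and between 5.52 and 8.37 on the other 11 arrays. By group they averaged 5.52 to 6.13 in IMQ-treated *Ahr*-/-, 5.87 to 7.29 in untreated *Ahr*-/-, 5.75 to 7.80 in IMQ-treated *Ahr*+/- and 8.22 to 12.39 in untreated *Ahr*+/- skin. Of 17 such markers 8 were called lower after IMQ in *Ahr*+/- skin and 0 in *Ahr*-/- skin. Between the untreated genotypes 0 were called, but 15 did not overlap, where 8.81% of all genes did not. Keratinocyte markers averaged 11.14 to 11.77 in IMQ-treated *Ahr*-/- skin, 12.35 to 12.89 in untreated *Ahr*-/- skin, 12.14 to 13.39 in IMQ-treated *Ahr*+/- skin and 12.53 to 12.87 in untreated *Ahr*+/- skin. These 7 markers moved in both directions: 1 was called higher and 4 lower after IMQ in *Ahr*-/- skin, with values between -3.58 and 1.58. In *Ahr*+/- skin 2 were called higher and 0 lower, and between the treated genotypes 3 were called lower in *Ahr*-/- skin. Fibroblast markers averaged 12.16 to 12.47 in IMQ-treated *Ahr*-/- skin, 12.89 to 13.02 in untreated *Ahr*-/- skin, 12.48 to 12.58 in IMQ-treated *Ahr*+/- skin and 12.64 to 13.20 in untreated *Ahr*+/- skin, without overlap between treated and untreated arrays of a genotype. Of 4 T cell markers 3 were called lower after IMQ in *Ahr*-/- skin and 1 in *Ahr*+/- skin, their mean being 5.81 to 6.08 in IMQ-treated *Ahr*-/- skin, 6.99 to 7.29 in untreated *Ahr*-/- skin, 5.91 to 6.59 in IMQ-treated *Ahr*+/- skin and 6.45 to 7.41 in untreated *Ahr*+/- skin. Of 7 endothelial markers 2 were called higher after IMQ in *Ahr*-/- skin and 1 in *Ahr*+/- skin, their mean being 8.34 to 8.47 in IMQ-treated *Ahr*-/- skin, 7.97 to 8.15 in untreated *Ahr*-/- skin, 7.92 to 7.96 in IMQ-treated *Ahr*+/- skin and 6.94 to 8.21 in untreated *Ahr*+/- skin. Of 9 macrophage markers 2 were called lower in *Ahr*-/- skin and 1 higher in *Ahr*+/- skin, and of 5 adipocyte markers 2 were called lower in *Ahr*-/- skin and 1 in *Ahr*+/- skin. Over all genes 22.7% were called after IMQ in *Ahr*-/- skin and 9.05% in *Ahr*+/- skin. The part of these cell types in the results was not tested.

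After IMQ, the listed HIF-1 targets and glycolysis genes were more often higher than genes in general. Because the list was chosen with earlier results of these data known, this excess is a description and not a test of an independent set. In *Ahr*-/- skin 16 of 33 members were called higher and 1 lower (51.5% called), where 10.6% of all genes were called higher, 12.1% lower and 22.7% in either direction. In *Ahr*+/- skin 10 members were called higher and 1 lower (33.3% called), where 5.22% of all genes were called higher, 3.83% lower and 9.05% in either direction. The median log2 difference over the members was 0.74 in *Ahr*-/- skin and 0.37 in *Ahr*+/- skin, beside 0.07 and -0.01 over all genes. Treated and untreated arrays did not overlap for 24 of 33 members in *Ahr*-/- skin and 15 in *Ahr*+/- skin. Over all genes 42.7% and 29.8% did not overlap, so a lack of overlap is common here. *Hif1a*, *Egln3*, *Slc2a1*, *Pfkl*, *Pgk1*, *Pgam1*, *Higd1a*, *Car9* and *Ankrd37* were called higher in both genotypes, and *Plod2* was called lower in both. In whole skin, a change in the number of cells that express a gene and a change in RNA per cell cannot be told apart.

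**Figure D1:**
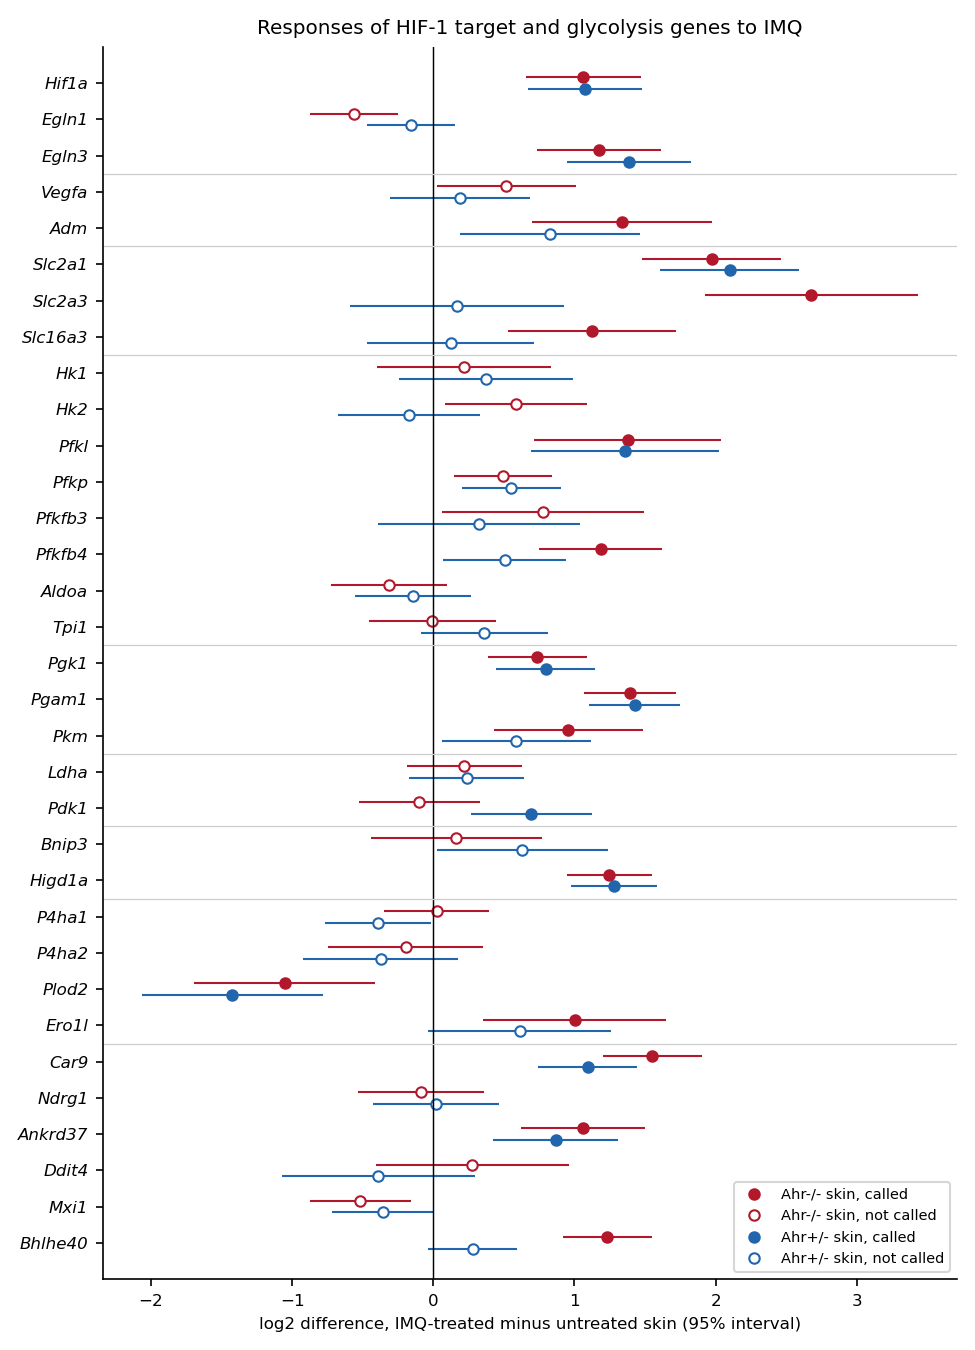
Change after IMQ (log2, treated minus untreated), with its 95% interval from limma, for each of the 33 measured members in *Ahr*-/- (red, upper) and *Ahr*+/- skin (blue, lower). Filled points were called, and grey lines separate groups of members by role. In *Ahr*-/- skin 17 points are filled and in *Ahr*+/- skin 11, and *Slc2a3* shows the widest gap between the genotypes, with 2.68 in *Ahr*-/- and 0.17 in *Ahr*+/- skin.

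Among the regulators, *Hif1a* had signals of 12.69, 12.42 and 12.83 in IMQ-treated *Ahr*-/- skin, against 11.65, 11.65 and 11.45 in untreated *Ahr*-/- skin. Signals in *Ahr*+/- skin were 12.98, 12.38 and 12.34 after IMQ, against 11.70, 11.44 and 11.34 in untreated skin. Every treated array was above every untreated one. The rise was 1.06 in *Ahr*-/- skin (SE 0.19, adjusted p = 0.00134 from limma) and 1.08 in *Ahr*+/- skin (SE 0.19, adjusted p = 0.0036 from limma), and the responses differed by -0.01 (95% interval -0.59 to 0.56). A second bright probe set was also called in both genotypes, 2 dim ones were not, and the mean over all 4 sets gave 0.51 in *Ahr*-/- skin, below the fold minimum. *Egln3*, a hypoxia-inducible prolyl hydroxylase, had 10.11, 9.89 and 10.46 after IMQ against 9.14, 8.80 and 9.01 without treatment in *Ahr*-/- skin, and 10.77, 10.01 and 10.31 after IMQ against 9.09, 8.95 and 8.89 without treatment in *Ahr*+/- skin. It rose 2.26-fold in *Ahr*-/- skin (adjusted p = 0.00115 from limma) and 2.62-fold in *Ahr*+/- skin (adjusted p = 0.00121 from limma), without overlap between treated and untreated arrays. A dimmer probe set of *Egln3* was not called, at -0.11 in *Ahr*-/- and 0.54 in *Ahr*+/- skin, and the mean over both sets gave 0.53 in *Ahr*-/- skin (adjusted p = 0.0625 from limma). *Egln1*, the main oxygen sensor of the family, differed by -0.56 in *Ahr*-/- skin (adjusted p = 0.012 from limma), just short of the fold minimum, and by -0.16 in *Ahr*+/- skin. Its second, dimmer probe set pointed the other way in *Ahr*-/- skin, at 0.66, so the direction for *Egln1* is uncertain.

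Of 10 other genes measured that control HIF, 2 were called higher and 2 lower in *Ahr*-/- skin, and 1 was called higher in *Ahr*+/- skin. That was 4 of 10 in *Ahr*-/- skin, beside 22.7% of all genes. The 1 of 10 in *Ahr*+/- skin was near the 9.05% of all genes called there. The 95% interval of the difference for *Arnt* was -0.30 to 0.30 in *Ahr*-/- skin and -0.25 to 0.35 in *Ahr*+/- skin, and the difference for *Vhl* was 0.16 in each genotype. *Siah2*, a ubiquitin ligase that acts on EGLN proteins, rose by 0.93 in *Ahr*-/- skin (adjusted p = 0.00256 from limma) and 0.73 in *Ahr*+/- skin (adjusted p = 0.0243 from limma), the *Ahr*+/- call being lost without any 1 IMQ-treated *Ahr*+/- array (adjusted p = 0.0631 to 0.0822 from limma). In *Ahr*-/- skin *Epas1*, which encodes HIF-2α, rose by 0.81 (adjusted p = 0.0164 from limma), a call lost without untreated replicate 2 (adjusted p = 0.0517) or IMQ replicate 1 (adjusted p = 0.0539). *Cited2*, a competitor of HIF for its coactivators, fell there by 1.39 (adjusted p = 0.00425 from limma), and *Hif1an*, which encodes the asparaginyl hydroxylase FIH, read -0.81 on 1 probe set (adjusted p = 0.00191 from limma) and -0.04 as the mean over its probe sets (adjusted p = 0.833 from limma). With the *Gapdh* 3′ to 5′ difference as a covariate, neither *Cited2* (-1.03, adjusted p = 0.0964 from limma) nor *Epas1* (0.82, adjusted p = 0.107 from limma) was called.

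Among the members, the largest rise in each genotype was that of a glucose transporter gene. *Slc2a1*, which encodes the GLUT1 glucose transporter, had signals of 12.17, 12.20 and 12.21 in IMQ-treated *Ahr*-/- skin, against 10.06, 10.11 and 10.49 in untreated *Ahr*-/- skin. Its *Ahr*+/- signals were 12.70, 11.86 and 11.94 after IMQ, against 10.35, 9.71 and 10.13 in untreated skin. Treated and untreated arrays lay far apart in both genotypes. The rise was 3.93-fold in *Ahr*-/- skin (log2 1.97, SE 0.23, adjusted p = 7.65e-05 from limma) and 4.29-fold in *Ahr*+/- skin (log2 2.10, SE 0.23, adjusted p = 0.000143 from limma), and all 3 probe sets of the gene were called in both genotypes. *Slc16a3*, which encodes the lactate exporter MCT4, had dim signals of 5.74, 6.72 and 6.05 in IMQ-treated *Ahr*-/- skin, against 4.98, 5.10 and 5.07 in untreated *Ahr*-/- skin. For *Ahr*+/- skin the signals were 5.53, 5.23 and 5.17 after IMQ, against 5.03, 4.74 and 5.79 in untreated skin, which overlapped. Its rise in *Ahr*-/- skin was 1.12 (SE 0.27, adjusted p = 0.00917 from limma). The value in *Ahr*+/- skin was 0.12, and the difference between the responses, 1.00 (95% interval 0.16 to 1.84), did not pass the test (adjusted p = 0.206 from limma).

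Of 11 measured enzymes of glycolysis and its regulatory side step, 5 were called higher in *Ahr*-/- skin and 3 in *Ahr*+/- skin, and none was called lower. That was 45.5% in *Ahr*-/- and 27.3% in *Ahr*+/- skin, where 22.7% and 9.05% of all genes were called. *Pfkl*, a phosphofructokinase subunit, had 8.55, 8.70 and 7.94 after IMQ against 7.43, 6.78 and 6.86 without treatment in *Ahr*-/- skin, and 8.35, 8.08 and 8.08 after IMQ against 7.58, 6.31 and 6.55 without treatment in *Ahr*+/- skin. Treated arrays were all above untreated ones, with differences of 1.38 in *Ahr*-/- (SE 0.31, adjusted p = 0.00553 from limma) and 1.36 in *Ahr*+/- skin (SE 0.31, adjusted p = 0.015 from limma). In *Ahr*+/- skin the call was lost without untreated replicate 3 (1.23, adjusted p = 0.0596) or IMQ replicate 1 (1.27, adjusted p = 0.0631), and the gene's other 2 probe sets read 0.24 and 0.18 there, the mean over the sets giving 0.59 (adjusted p = 0.0714). In *Ahr*-/- skin the call was lost with the *Gapdh* covariate (1.07, adjusted p = 0.107 from limma) and with the third IMQ-treated array alone (0.92, adjusted p = 0.239 from limma). *Pfkfb4*, which makes the activator of phosphofructokinase, had 9.29, 9.39 and 8.75 after IMQ against 8.00, 8.10 and 7.78 without treatment in *Ahr*-/- skin, and 8.51, 8.34 and 8.50 after IMQ against 8.16, 7.56 and 8.12 without treatment in *Ahr*+/- skin. No array overlapped in either genotype, yet only the *Ahr*-/- change of 1.19 was called (adjusted p = 0.00105 from limma), the *Ahr*+/- value being 0.50 (adjusted p = 0.136 from limma).

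All 3 listed enzymes of the lower steps that were measured were called higher in *Ahr*-/- skin. *Pgk1*, which encodes phosphoglycerate kinase, had 12.97, 12.73 and 13.08 after IMQ against 12.07, 12.12 and 12.38 without treatment in *Ahr*-/- skin, and 13.13, 12.97 and 12.94 after IMQ against 12.20, 11.97 and 12.49 without treatment in *Ahr*+/- skin. The rises of 1.67-fold in *Ahr*-/- (adjusted p = 0.00525 from limma) and 1.74-fold in *Ahr*+/- skin (adjusted p = 0.00907 from limma) were smaller than those of *Slc2a1* but were called on all 3 probe sets. *Pgam1*, phosphoglycerate mutase, had 11.23, 11.06 and 11.29 after IMQ against 9.80, 9.77 and 9.83 without treatment in *Ahr*-/- skin. The *Ahr*+/- arrays read 11.73, 11.29 and 11.26 after IMQ, against 10.13, 10.01 and 9.87 in untreated skin. It rose 2.63-fold in *Ahr*-/- (adjusted p = 4.66e-05 from limma) and 2.69-fold in *Ahr*+/- skin (adjusted p = 0.000116 from limma). *Pkm*, pyruvate kinase, had 11.54, 11.69 and 11.30 after IMQ against 10.80, 10.58 and 10.28 without treatment in *Ahr*-/- skin, and 11.21, 10.96 and 10.79 after IMQ against 10.88, 9.81 and 10.51 without treatment in *Ahr*+/- skin, where treated and untreated arrays overlapped. The change of 0.96 in *Ahr*-/- skin was called (adjusted p = 0.0114 from limma), and that of 0.59 in *Ahr*+/- skin was not (adjusted p = 0.151 from limma), although it was without untreated *Ahr*+/- replicate 1 (0.83, adjusted p = 0.0412).

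**Figure D2:**
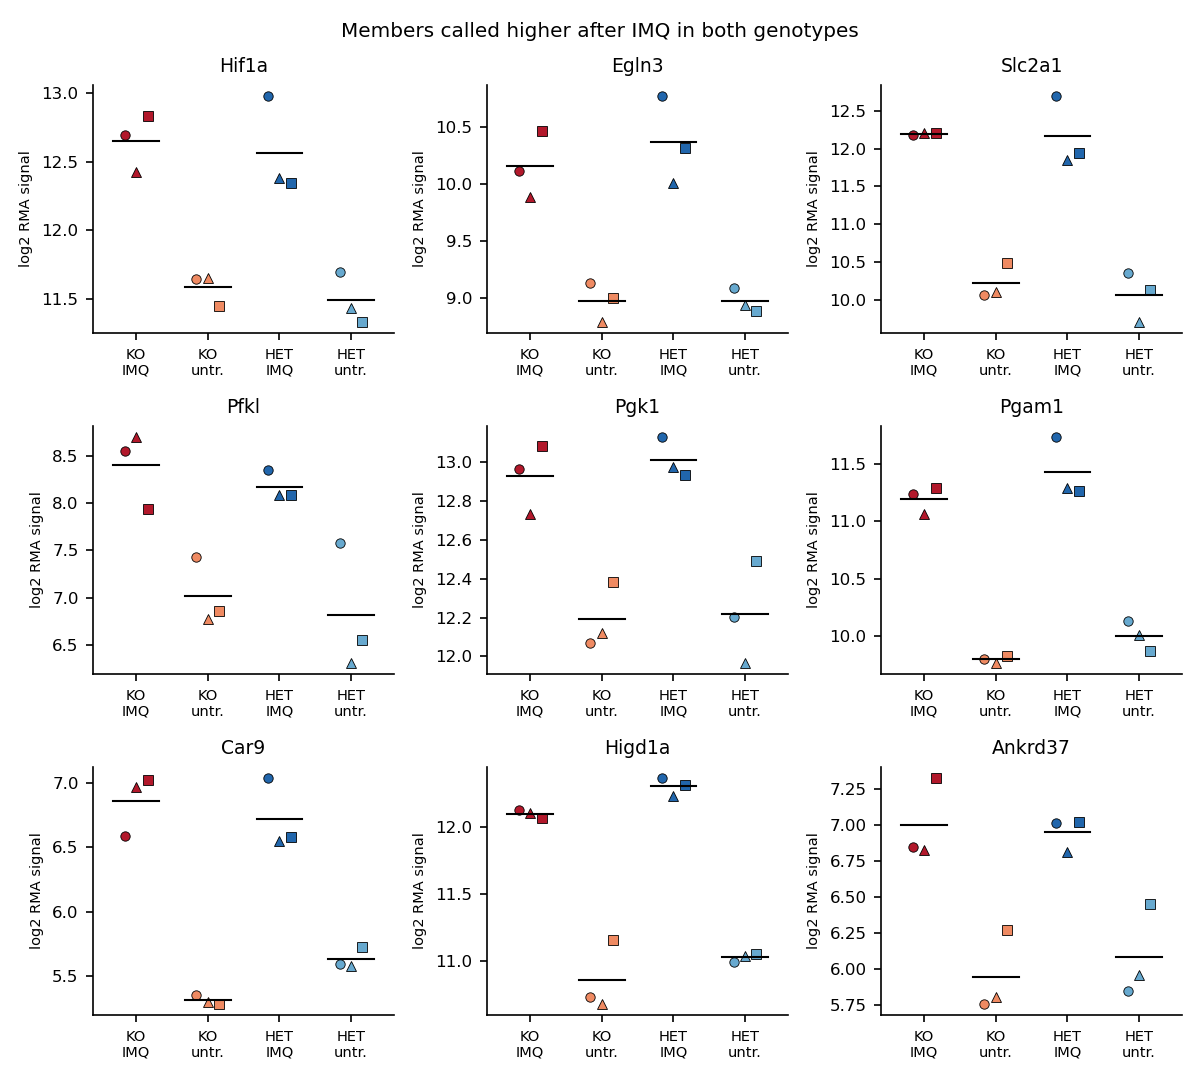
Log2 signals of the 9 members called higher after IMQ in both genotypes, 1 panel per gene, with the 3 arrays of each group as points (circle, triangle and square for replicates 1, 2 and 3) and the group mean as a bar. From left to right the groups are IMQ-treated *Ahr*-/-, untreated *Ahr*-/-, IMQ-treated *Ahr*+/- and untreated *Ahr*+/- skin. In each panel all treated arrays lie above all untreated arrays, and *Slc2a1* shows the largest change. The 9 genes were picked by their calls, and over all genes 42.7% in *Ahr*-/- and 29.8% in *Ahr*+/- skin had no overlap.

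Not every step moved. *Aldoa* (aldolase), *Tpi1* (triose phosphate isomerase) and *Ldha* (lactate dehydrogenase), which are among the best known HIF-1 targets, were not called in either genotype. *Ldha* had 12.91, 12.75 and 13.06 in IMQ-treated *Ahr*-/- skin, against 12.68, 12.68 and 12.71 in untreated *Ahr*-/- skin, a difference of 0.22 (95% interval -0.19 to 0.62). Signals in *Ahr*+/- skin were 12.97, 12.81 and 12.73 after IMQ, against 12.78, 12.12 and 12.92 in untreated skin, a difference of 0.24 (95% interval -0.17 to 0.64). *Aldoa* differed by -0.31 in *Ahr*-/- (95% interval -0.72 to 0.10) and -0.14 in *Ahr*+/- skin (95% interval -0.55 to 0.26), and *Tpi1* by -0.01 and 0.36. Skeletal muscle, which lies under the skin and is rich in glycolytic enzymes, was also present: its 15 markers averaged 12.26 to 12.74 in IMQ-treated *Ahr*-/- skin, 13.21 to 13.28 in untreated *Ahr*-/- skin, 12.26 to 12.61 in IMQ-treated *Ahr*+/- skin and 12.33 to 13.49 in untreated *Ahr*+/- skin. Of these markers 6 were called lower in *Ahr*-/- skin and 2 in *Ahr*+/- skin, and their part in the values of the enzymes was not tested. *Hk1* and *Hk2* (hexokinases), *Pfkfb3* and *Pfkp* (a phosphofructokinase subunit) were not called either, with values between -0.17 and 0.78. *Pfkp* passed the test in both genotypes, at 0.49 in *Ahr*-/- and 0.55 in *Ahr*+/- skin, but not the fold minimum; with the *Gapdh* covariate its *Ahr*-/- value was 0.70 and was called (adjusted p = 0.04 from limma). In *Ahr*-/- skin *Hk2* (0.59) was called without untreated *Ahr*+/- replicate 2 (adjusted p = 0.0455) or 3 (adjusted p = 0.0292), and *Pfkfb3* (0.78) without untreated *Ahr*+/- replicate 2 (adjusted p = 0.0334) and as the mean over its probe sets (0.61, adjusted p = 0.0159).

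**Figure D3:**
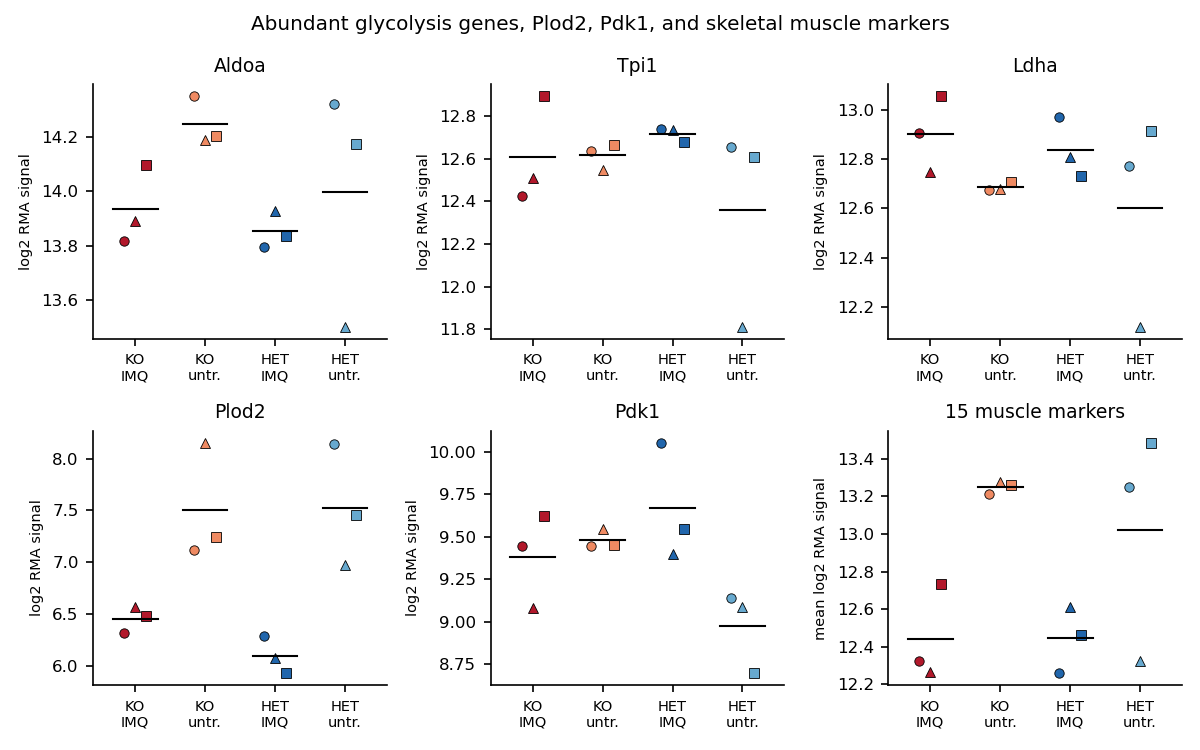
Log2 signals of *Aldoa*, *Tpi1*, *Ldha*, *Plod2* and *Pdk1*, and the mean over 15 skeletal muscle markers, with the 3 arrays of each group as points (circle, triangle and square for replicates 1, 2 and 3) and the group mean as a bar. *Aldoa*, *Tpi1* and *Ldha* show group means within 0.36 of each other between treated and untreated skin of a genotype, and *Plod2* is lower on every treated array.

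*Pdk1*, a kinase that inhibits the pyruvate dehydrogenase complex, had 10.05, 9.40 and 9.55 in IMQ-treated *Ahr*+/- skin, against 9.14, 9.09 and 8.69 in untreated *Ahr*+/- skin, and 9.44, 9.08 and 9.62 in IMQ-treated *Ahr*-/- skin, against 9.45, 9.54 and 9.45 in untreated *Ahr*-/- skin. The treated arrays were higher in *Ahr*+/- skin and overlapped with the untreated ones in *Ahr*-/- skin. The difference of 0.69 in *Ahr*+/- skin was called narrowly (adjusted p = 0.0442 from limma), and that in *Ahr*-/- skin was -0.10. The call was lost without any 1 of 7 arrays, namely untreated *Ahr*+/- replicate 3, IMQ-treated *Ahr*+/- replicates 1 and 3, all 3 untreated *Ahr*-/- replicates and IMQ-treated *Ahr*-/- replicate 1 (values 0.50 to 0.75, adjusted p = 0.0522 to 0.188 from limma), and with the *Gapdh* covariate (0.60, adjusted p = 0.0641 from limma). Another probe set of similar brightness fell in *Ahr*-/- skin by 0.89 and read -0.10 in *Ahr*+/- skin, so the direction for this gene depends on the probe set, and the mean over its 4 sets gave 0.03 in *Ahr*+/- skin.

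Among genes of mitochondria, *Higd1a*, which encodes a hypoxia-induced protein of the respiratory chain, had 12.13, 12.10 and 12.07 after IMQ against 10.73, 10.68 and 11.15 without treatment in *Ahr*-/- skin, and 12.37, 12.23 and 12.32 after IMQ against 10.99, 11.04 and 11.05 without treatment in *Ahr*+/- skin. The treated arrays were all above the untreated ones, by 1.25 in *Ahr*-/- (SE 0.14, adjusted p = 6.33e-05 from limma) and 1.28 in *Ahr*+/- skin (SE 0.14, adjusted p = 0.000151 from limma), while its 2 dimmer probe sets were not called, and the mean over all 3 sets gave 0.29 in *Ahr*-/- skin. *Bnip3*, a mitophagy receptor gene, was not called, at 0.16 in *Ahr*-/- and 0.63 in *Ahr*+/- skin. *Car9*, carbonic anhydrase IX, which controls pH outside hypoxic cells, had 6.59, 6.97 and 7.02 after IMQ against 5.35, 5.30 and 5.28 without treatment in *Ahr*-/- skin. Its *Ahr*+/- signals were 7.04, 6.55 and 6.58 after IMQ, against 5.59, 5.58 and 5.72 in untreated skin. It rose 2.93-fold in *Ahr*-/- (adjusted p = 3.91e-05 from limma) and 2.13-fold in *Ahr*+/- skin (adjusted p = 0.00134 from limma), and the responses differed by 0.46 (95% interval -0.04 to 0.96). *Ankrd37*, an ankyrin repeat gene induced by hypoxia, had 6.84, 6.83 and 7.33 after IMQ against 5.76, 5.80 and 6.27 without treatment in *Ahr*-/- skin, and 7.01, 6.81 and 7.02 after IMQ against 5.84, 5.96 and 6.45 without treatment in *Ahr*+/- skin. It rose by 1.06 in *Ahr*-/- (adjusted p = 0.00236 from limma) and 0.87 in *Ahr*+/- skin (adjusted p = 0.0181 from limma), the second call being lost without untreated *Ahr*+/- replicate 1, or IMQ-treated *Ahr*+/- replicate 1 or 3 (adjusted p = 0.0506 to 0.0705 from limma).

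Of 4 members for collagen modification and protein folding, 1 was called higher and 1 lower in *Ahr*-/- skin, and 1 was called lower in *Ahr*+/- skin. *Plod2*, a collagen lysyl hydroxylase, had 6.31, 6.57 and 6.49 in IMQ-treated *Ahr*-/- skin, against 7.12, 8.15 and 7.25 in untreated *Ahr*-/- skin. For *Ahr*+/- skin the signals were 6.29, 6.07 and 5.93 after IMQ, against 8.14, 6.97 and 7.46 in untreated skin. Every treated array was below every untreated one. The fall was -1.05 in *Ahr*-/- skin (SE 0.30, adjusted p = 0.019 from limma) and -1.42 in *Ahr*+/- skin (SE 0.30, adjusted p = 0.00974 from limma), and a second probe set read -1.92 in *Ahr*-/- and -3.32 in *Ahr*+/- skin, both called. In *Ahr*-/- skin the call was lost without untreated replicate 2 (-0.73, adjusted p = 0.0844) or IMQ replicate 1 (-0.98, adjusted p = 0.0661). Of 6 fibroblast markers, 3 were called lower and 1, *Pdgfra*, higher in *Ahr*-/- skin, and 2 were called lower in *Ahr*+/- skin, where 3 of 6 were above 0, and their part in the value of *Plod2* was not tested. *P4ha1* and *P4ha2*, collagen prolyl hydroxylases, were not called, with values between -0.39 and 0.02, except that *P4ha1* was called in *Ahr*+/- skin without untreated replicate 2 (-0.61, adjusted p = 0.00977). *Ero1l*, an oxidase of the endoplasmic reticulum, had 9.72, 9.27 and 9.26 after IMQ against 8.72, 8.35 and 8.18 without treatment in *Ahr*-/- skin, and 9.83, 9.45 and 9.57 after IMQ against 8.79, 9.82 and 8.40 without treatment in *Ahr*+/- skin. It rose by 1.00 in *Ahr*-/- skin (adjusted p = 0.025 from limma), a call lost without untreated *Ahr*-/- replicate 2 or 3 or IMQ-treated *Ahr*-/- replicate 1 or 2 (adjusted p = 0.0508 to 0.0974 from limma). In *Ahr*+/- skin the value was 0.61, where untreated replicate 2 stood with the treated arrays, and without that array it was called (1.02, adjusted p = 0.00721). The gene's other 2 probe sets were called in *Ahr*+/- skin, at 1.80 and 1.45, and 1 of them in *Ahr*-/- skin, at 2.46.

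Of the secreted factors, *Adm*, which encodes the vasodilator peptide adrenomedullin, had 9.22, 9.69 and 9.63 in IMQ-treated *Ahr*-/- skin, against 8.31, 8.03 and 8.19 in untreated *Ahr*-/- skin. The *Ahr*+/- arrays read 9.39, 8.21 and 8.48 after IMQ, against 8.41, 7.51 and 7.69 in untreated skin, which overlapped. It rose 2.53-fold in *Ahr*-/- skin (adjusted p = 0.00512 from limma), and its 1.77-fold difference in *Ahr*+/- skin was not called (adjusted p = 0.0986 from limma) except without untreated *Ahr*+/- replicate 1 (1.09 on the log2 scale, adjusted p = 0.0327). *Vegfa*, the principal angiogenic factor under HIF-1, had 8.52, 8.13 and 8.86 in IMQ-treated *Ahr*-/- skin, against 8.24, 7.91 and 7.81 in untreated *Ahr*-/- skin, and 8.50, 7.89 and 7.83 in IMQ-treated *Ahr*+/- skin, against 8.03, 7.62 and 8.01 in untreated *Ahr*+/- skin. Treated and untreated arrays overlapped in both genotypes, and the differences of 0.52 (95% interval 0.02 to 1.01) in *Ahr*-/- and 0.19 (95% interval -0.31 to 0.68) in *Ahr*+/- skin were not called. With the beta-actin 3′ to 5′ difference as a covariate the *Ahr*-/- value was 0.81 and was called (adjusted p = 0.0341 from limma). The remaining stress and transcription genes *Ndrg1*, *Ddit4* and *Mxi1* were not called, with values between -0.52 and 0.28.

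The promoters of the members were examined for the letters at the core of the hypoxia response element, because the members were listed as HIF-1 targets or neighbours of such targets. The windows ran from 250 bases before to 50 bases after each RefSeq transcription start (GRCm38.p6), and 29 of the 33 members had at least 1. The 5 letters ACGTG, searched on both strands, stood in a window of 23 of these 29 members (79.3%), against 26.1% of the 14452 tested genes with a window and 21.8% of all 27025 genes with one. GCGTG, the other form of the core and also the core of the element bound by the aryl hydrocarbon receptor, stood in 65.5% of members and in 47.8% of tested genes. The letters did not separate the members that moved: ACGTG was present in 11 of 15 members called higher after IMQ in at least 1 genotype that had a window, and in 12 of 14 members not called higher. A match of 5 letters is a description and not a site. The 250 bases before the start of 4 members that rose in both genotypes, and of *Ldha*, which was not called, follow in 5′ to 3′ direction along the gene, to show what a responding and a non-responding member carry, with each core in capitals; CACGT and CACGC are ACGTG and GCGTG read on the other strand, and CACGTG counts on both.
Slc2a1, chr4:119108495-119108744, + strand: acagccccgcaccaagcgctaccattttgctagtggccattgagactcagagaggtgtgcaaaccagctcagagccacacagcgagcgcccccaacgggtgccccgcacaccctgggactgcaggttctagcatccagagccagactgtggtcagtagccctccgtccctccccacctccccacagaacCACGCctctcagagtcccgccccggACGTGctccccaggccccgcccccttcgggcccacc
Pgam1, chr19:41911621-41911870, + strand: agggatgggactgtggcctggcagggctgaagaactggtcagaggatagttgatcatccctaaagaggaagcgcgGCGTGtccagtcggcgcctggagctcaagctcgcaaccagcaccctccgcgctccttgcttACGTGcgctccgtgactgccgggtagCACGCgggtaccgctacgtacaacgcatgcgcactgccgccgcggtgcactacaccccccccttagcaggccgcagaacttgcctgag
Pgk1, chrX:106186850-106187099, + strand: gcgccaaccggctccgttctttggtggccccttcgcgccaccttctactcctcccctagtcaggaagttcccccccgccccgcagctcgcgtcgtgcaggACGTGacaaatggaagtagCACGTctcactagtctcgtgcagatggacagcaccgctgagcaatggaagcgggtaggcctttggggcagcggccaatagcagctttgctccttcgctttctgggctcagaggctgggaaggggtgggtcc
Car9, chr4:43506776-43507025, + strand: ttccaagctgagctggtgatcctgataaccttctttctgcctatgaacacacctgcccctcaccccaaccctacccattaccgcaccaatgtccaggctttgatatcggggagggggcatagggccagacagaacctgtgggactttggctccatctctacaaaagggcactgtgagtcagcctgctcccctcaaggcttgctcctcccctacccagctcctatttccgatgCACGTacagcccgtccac
Ldha, chr7:46845554-46845803, + strand: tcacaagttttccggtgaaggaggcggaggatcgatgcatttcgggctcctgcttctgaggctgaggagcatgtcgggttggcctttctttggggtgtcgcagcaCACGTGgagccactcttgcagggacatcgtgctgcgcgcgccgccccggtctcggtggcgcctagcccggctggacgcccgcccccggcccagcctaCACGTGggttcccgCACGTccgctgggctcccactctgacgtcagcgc

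*Ldha*, with the smallest response of these 5 genes, held 5 matches to ACGTG, counting each CACGTG on both strands, against 2 in *Pgk1* and 1 in each of *Slc2a1*, *Pgam1* and *Car9*.

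**Figure D4:**
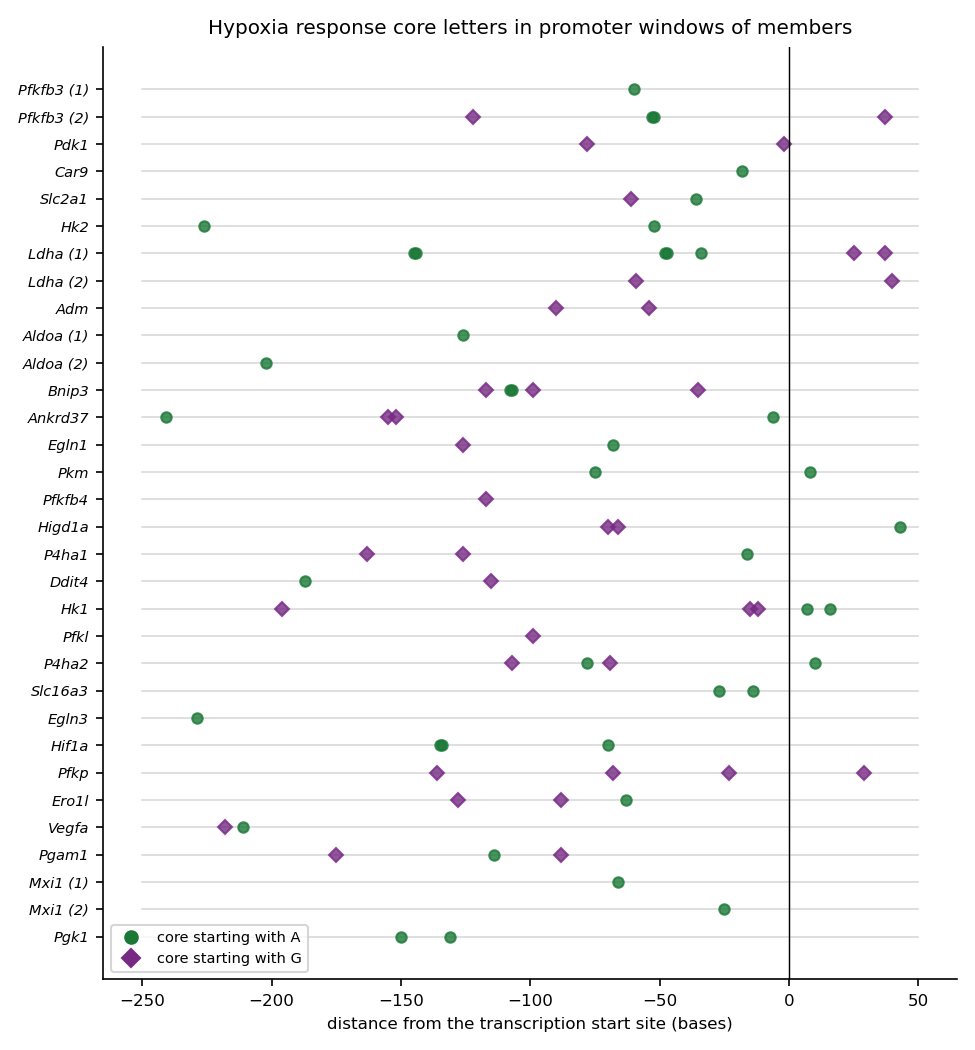
Places of the core letters in the 32 windows of members that hold at least 1 core, as distance in bases from the transcription start (vertical line); green circles mark the core starting with A and purple diamonds the core starting with G, on either strand. Numbers in parentheses separate the start sites of 1 gene and 23 of 29 members with a window have at least 1 green circle.

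Between untreated *Ahr*-/- and untreated *Ahr*+/- skin none of the 33 members was called, where 0.0055% of all genes, a single gene, was; 1 member, *Pdk1*, had an unadjusted p under 0.05, and the values lay between -0.59 and 0.51. The rank product, the study's method, called none of them either, at an estimated share of false positives under 0.01. Of all 18193 genes it called 13 higher and 45 lower there. After 2 days of IMQ, 2 members were called higher in *Ahr*-/- skin and none lower (6.06%), where 2.12% of all genes were called higher, 1.86% lower and 3.98% in either direction. With the *Gapdh* covariate, of all genes 27 were higher and 0 lower, against 385 higher and 339 lower without it, and none was a member. The other 31 had values between -0.41 and 0.86. Both called members were also the ones whose response to IMQ differed between the genotypes (6.06%, where the difference was called positive for 0.539%, negative for 0.786% and either for 1.32% of all genes); these comparisons share arrays and are not separate evidence.

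*Slc2a3*, which encodes GLUT3, the high-affinity glucose transporter of neurons and white blood cells, had signals of 9.70, 10.72 and 9.66 in IMQ-treated *Ahr*-/- skin, against 7.53, 7.41 and 7.11 in untreated *Ahr*-/- skin. Signals in *Ahr*+/- skin were 7.57, 6.82 and 6.83 after IMQ, against 7.46, 6.18 and 7.07 in untreated skin. The 3 treated *Ahr*-/- arrays stood above all other arrays, which overlapped with each other. It rose 6.4-fold in *Ahr*-/- skin (log2 2.68, SE 0.35, adjusted p = 0.000189 from limma) and was 7.75-fold higher in treated *Ahr*-/- than treated *Ahr*+/- skin (log2 2.95, SE 0.35, adjusted p = 0.00092 from limma). The difference between the responses was 2.51 (SE 0.49, adjusted p = 0.0328 from limma). A second probe set of similar brightness gave 2.92 between the treated genotypes, and 2 sets near the bottom of the signal range gave 0.16 and 0.15. The test of the difference was lost without any 1 of 8 arrays, namely untreated *Ahr*+/- replicate 3, IMQ-treated *Ahr*+/- replicates 2 and 3, all 3 untreated *Ahr*-/- replicates and IMQ-treated *Ahr*-/- replicates 1 and 2 (2.16 to 2.67, adjusted p = 0.051 to 0.103 from limma).

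*Bhlhe40*, a transcriptional repressor of the circadian and hypoxia responses, had 10.55, 10.33 and 10.25 in IMQ-treated *Ahr*-/- skin, against 9.22, 9.17 and 9.04 in untreated *Ahr*-/- skin. Its *Ahr*+/- signals were 9.78, 9.33 and 9.59 after IMQ, against 9.20, 9.36 and 9.30 in untreated skin, which overlapped. It rose 2.35-fold in *Ahr*-/- skin (adjusted p = 9.04e-05 from limma), and its value in *Ahr*+/- skin was 0.28 (adjusted p = 0.259 from limma). Treated *Ahr*-/- skin exceeded treated *Ahr*+/- skin by 0.81 (SE 0.15, adjusted p = 0.00925 from limma), a call lost without IMQ-treated *Ahr*+/- replicate 2 (0.69, adjusted p = 0.0625). The responses differed by 0.95 (SE 0.21, adjusted p = 0.0451 from limma). That last call was lost without any 1 of 9 arrays (0.84 to 0.99, adjusted p = 0.0625 to 0.136 from limma), and stood only without untreated *Ahr*+/- replicate 1, IMQ-treated *Ahr*+/- replicate 1 or IMQ-treated *Ahr*-/- replicate 3.

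The 2 *Ahr*-/- arrays with the high *Gapdh* 3′ to 5′ difference entered both results. With the *Gapdh* 3′ to 5′ difference as a covariate, *Slc2a3* was still called after IMQ in *Ahr*-/- skin (2.27, adjusted p = 0.00838 from limma), but the comparison of the treated genotypes was not (2.45, adjusted p = 0.114 from limma). With the third array alone for IMQ-treated *Ahr*-/- skin these values were 2.31 (adjusted p = 0.0163 from limma) and 2.58 (adjusted p = 0.0712 from limma). *Bhlhe40* differed between the treated genotypes by 0.73 (adjusted p = 0.28 from limma) and 0.69 (adjusted p = 0.281 from limma) in the same fits. With the covariate, the *Ahr*-/- changes of *Ero1l* (1.04), *Pfkl* (1.07), *Pkm* (0.79), *Plod2* (-1.05) and *Slc16a3* (0.82) were not called (adjusted p = 0.107 to 0.157 from limma). With the third array alone these 5 were again not called, at 0.84, 0.92, 0.75, -1.02 and 1.00, nor were *Adm* (1.45, adjusted p = 0.0786) and *Pfkfb4* (0.79, adjusted p = 0.0892). *Hif1a*, *Slc2a1*, *Pgam1* and *Car9* were called in *Ahr*-/- skin in each of these fits. Of 10 listed neutrophil markers 8 were measured. After IMQ 7 of them were called higher in *Ahr*-/- skin and 3 in *Ahr*+/- skin, and 5 were higher in treated *Ahr*-/- than treated *Ahr*+/- skin. Their mean signal was 9.06 to 9.21 in IMQ-treated *Ahr*-/- skin, 5.79 to 5.99 in untreated *Ahr*-/- skin, 6.71 to 7.77 in IMQ-treated *Ahr*+/- skin and 5.61 to 5.92 in untreated *Ahr*+/- skin. In *Ahr*+/- skin 5 of the 8 markers were above 0 after IMQ, with values between -0.48 and 6.98. The part of the neutrophil markers in the signal of *Slc2a3*, *Bhlhe40* and the other members called in *Ahr*-/- skin was not tested.

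**Figure D5:**
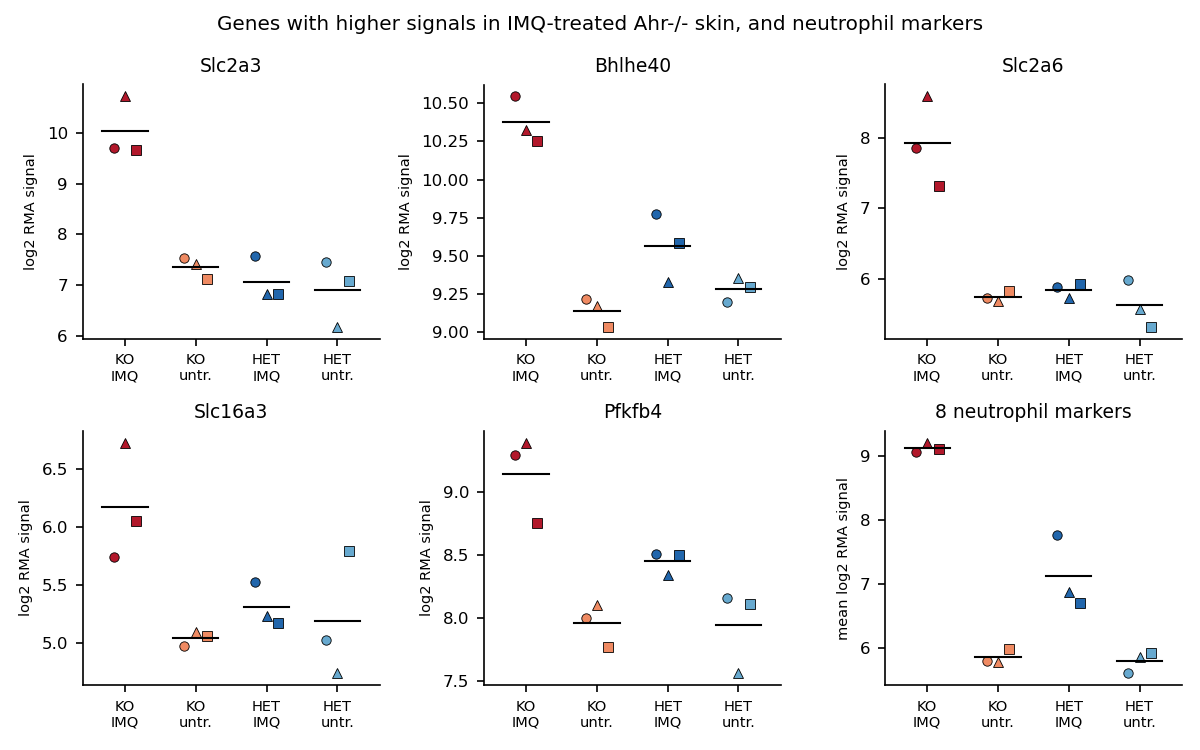
Log2 signals of *Slc2a3*, *Bhlhe40*, *Slc2a6*, *Slc16a3* and *Pfkfb4*, and the mean over 8 neutrophil markers, with the 3 arrays of each group as points (circle, triangle and square for replicates 1, 2 and 3) and the group mean as a bar. In every panel but that of *Slc16a3*, where 1 untreated *Ahr*+/- array reads 5.79, the 3 IMQ-treated *Ahr*-/- arrays lie above all arrays of the other groups; the neutrophil mean is 9.06 to 9.21 on them and at most 7.77 elsewhere.

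In all, 7 members were called after IMQ in *Ahr*-/- skin and not in *Ahr*+/- skin: *Adm*, *Bhlhe40*, *Ero1l*, *Pfkfb4*, *Pkm*, *Slc16a3* and *Slc2a3*. For *Adm*, *Ero1l*, *Pfkfb4*, *Pkm* and *Slc16a3* the difference between the responses was itself not called, at 0.51 (95% interval -0.39 to 1.41), 0.39 (-0.53 to 1.30), 0.68 (0.07 to 1.30), 0.37 (-0.38 to 1.11) and 1.00 (0.16 to 1.84), so a difference between the genotypes was not shown for these 5. Between the treated genotypes, *Adm* and *Ddit4* were not called, but were without IMQ-treated *Ahr*+/- replicate 1 (1.17, adjusted p = 0.023, and 1.06, adjusted p = 0.0265). *Pfkfb4*, at 0.69 and not called (adjusted p = 0.0734 from limma), was called without untreated *Ahr*+/- replicate 2 (adjusted p = 0.03) or IMQ-treated *Ahr*-/- replicate 3 (0.89, adjusted p = 0.0201). For the 9 members that rose in both genotypes, the responses differed by between -0.21 and 0.46.

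Genes of the same pathways outside the list moved in both directions. Of 13 other glucose and monocarboxylate transporters, 3 were called higher and 3 lower in *Ahr*-/- skin (46.2%, beside 22.7% of all genes). In *Ahr*+/- skin 3 were called higher and none lower (23.1%, beside 9.05% of all genes). *Slc5a1*, the sodium-coupled glucose transporter SGLT1, had 10.28, 9.55 and 8.92 in IMQ-treated *Ahr*-/- skin, against 6.45, 6.32 and 6.84 in untreated *Ahr*-/- skin. It rose by 3.05 there (adjusted p = 1.6e-05 from limma), and its rise in *Ahr*+/- skin was 3.73 (adjusted p = 8.27e-06 from limma), and the groups did not overlap. *Slc16a1*, the lactate transporter MCT1, rose by 1.43 in *Ahr*-/- and 1.77 in *Ahr*+/- skin. *Slc2a12* fell by 3.15 in *Ahr*-/- skin (adjusted p = 0.000186 from limma), its value in *Ahr*+/- skin being -1.37 (adjusted p = 0.0523 from limma). *Slc2a6*, a lysosomal sugar transporter of white blood cells, followed *Slc2a3*: it had 7.86, 8.60 and 7.32 in IMQ-treated *Ahr*-/- skin, 5.72, 5.68 and 5.82 in untreated *Ahr*-/- skin, 5.88, 5.72 and 5.92 in IMQ-treated *Ahr*+/- skin and 5.98, 5.57 and 5.31 in untreated *Ahr*+/- skin. Treated *Ahr*-/- exceeded treated *Ahr*+/- skin by 2.08 (SE 0.26, adjusted p = 0.00136 from limma), by 1.48 with the third *Ahr*-/- array alone (adjusted p = 0.0514 from limma) and by 1.42 with the *Gapdh* covariate (adjusted p = 0.12 from limma).

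Of 16 other glycolysis enzymes, 1 was called higher and 6 lower in *Ahr*-/- skin, and 1 higher and 2 lower in *Ahr*+/- skin, with medians of -0.69 and -0.53. That was 43.8% and 18.8% called, beside 22.7% and 9.05% of all genes. *Hk3*, a hexokinase of myeloid cells, was narrowly called, at 0.98 in *Ahr*-/- (adjusted p = 0.0462 from limma) and 1.21 in *Ahr*+/- skin (adjusted p = 0.039 from limma). The *Ahr*-/- call stood only without untreated *Ahr*+/- replicate 1 or 2 or untreated *Ahr*-/- replicate 2, and the *Ahr*+/- call only without untreated *Ahr*+/- replicate 1, untreated *Ahr*-/- replicate 2 or 3 or IMQ-treated *Ahr*-/- replicate 2; without untreated *Ahr*+/- replicate 2 the *Ahr*+/- value was 0.76 (adjusted p = 0.0547). *Ldhb*, the lactate dehydrogenase subunit of oxidative tissues, fell by 1.14 in *Ahr*-/- skin (adjusted p = 0.00792 from limma), and was not called with the *Gapdh* covariate (-1.10, adjusted p = 0.0783 from limma). *Bpgm* was called lower in both genotypes, at -0.81 in *Ahr*-/- (adjusted p = 0.014 from limma) and -0.97 in *Ahr*+/- skin (adjusted p = 0.0135 from limma). Its *Ahr*-/- call was lost with the *Gapdh* covariate (-0.71, adjusted p = 0.14 from limma). The *Ahr*+/- call of *Bpgm* was lost as the mean over its probe sets (-0.64, adjusted p = 0.123 from limma). *Pfkfb2* read -1.13 in *Ahr*-/- and -0.77 in *Ahr*+/- skin on 1 probe set, called in both, but -0.14 and -0.11 as the mean over its probe sets, not called. The *Ahr*+/- call was also lost without untreated *Ahr*+/- replicate 1 or 3, any 1 IMQ-treated *Ahr*+/- array or IMQ-treated *Ahr*-/- replicate 1 (adjusted p = 0.0559 to 0.149 from limma). *Eno3*, the enolase of muscle, fell by 1.01 in *Ahr*-/- skin (adjusted p = 0.0351 from limma), with the muscle markers given above. That call was lost without any 1 untreated *Ahr*-/- array or IMQ-treated *Ahr*-/- replicate 1 or 2 (adjusted p = 0.0753 to 0.137 from limma), with the *Gapdh* covariate (-0.59) and with the third IMQ-treated *Ahr*-/- array alone (-0.33, adjusted p = 0.681 from limma). *Gapdh* was covered only by array control sets and was not tested; its 3′ set read 13.70 to 13.76 in IMQ-treated *Ahr*-/- skin, 13.43 to 13.83 in untreated *Ahr*-/- skin, 13.46 to 13.61 in IMQ-treated *Ahr*+/- skin and 12.98 to 13.81 in untreated *Ahr*+/- skin, which overlapped.

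Of 27 other HIF-1 target genes, 9 were called higher and 2 lower in *Ahr*-/- skin (40.7%, beside 22.7% of all genes). In *Ahr*+/- skin 6 were called higher and 1 lower (25.9%, beside 9.05% of all genes). The medians were 0.67 and 0.25. *Ppp1r3c*, the 1 called lower in *Ahr*+/- skin (-1.84), had 10.68, 10.44 and 10.37 after IMQ there, against 12.40, 11.59 and 13.04 in untreated skin. In *Ahr*-/- skin it had 10.47, 10.32 and 12.05 after IMQ, against 11.48, 11.53 and 12.73 in untreated skin, which overlapped. *Fam162a*, a hypoxia-induced mitochondrial gene, rose by 1.76 in *Ahr*-/- (adjusted p = 2.9e-05 from limma) and 1.87 in *Ahr*+/- skin (adjusted p = 4.56e-05 from limma). *Car12*, a second carbonic anhydrase of the cell surface, rose by 1.91 in *Ahr*+/- skin (adjusted p = 0.00808 from limma). Its *Ahr*-/- value of 1.20 (adjusted p = 0.0335 from limma) was not called without untreated *Ahr*-/- replicate 3 (0.78, adjusted p = 0.12) or IMQ-treated *Ahr*-/- replicate 1 (1.17, adjusted p = 0.0892) or 2 (1.08, adjusted p = 0.114), nor as the mean over its probe sets (0.37, adjusted p = 0.112). Between the treated genotypes, *Gys1*, glycogen synthase, was the single gene called in this list (0.92, adjusted p = 0.0292 from limma), and it was not called when any 1 treated array other than *Ahr*-/- replicate 3 was left out (adjusted p = 0.065 to 0.134 from limma). None of 16 tricarboxylic acid cycle genes was called by limma in any comparison, 2 having an unadjusted p under 0.05 for IMQ in *Ahr*-/- skin and 1 in *Ahr*+/- skin, their values after IMQ lying between -0.44 and 0.41 in *Ahr*-/- skin and between -0.36 and 0.47 in *Ahr*+/- skin. In the pentose phosphate pathway 1 of 8 genes, *H6pd*, was called (12.5%, below the 22.7% of all genes after IMQ in *Ahr*-/- skin). It read 1.43 in *Ahr*-/- skin after IMQ (adjusted p = 0.00281 from limma) and 1.25 between the treated genotypes (adjusted p = 0.0298 from limma). With the *Gapdh* covariate neither was called (1.24, adjusted p = 0.0559, and 1.01, adjusted p = 0.569), nor with the third *Ahr*-/- array alone (1.16, adjusted p = 0.134, and 0.97, adjusted p = 0.535), and the second was lost without IMQ-treated *Ahr*+/- replicate 2 or 3 or IMQ-treated *Ahr*-/- replicate 1 or 2 (adjusted p = 0.0978 to 0.149 from limma). Of 11 genes of the pyruvate dehydrogenase complex and its regulators, 1 was called higher and 2 lower in *Ahr*-/- skin (27.3%, near the 22.7% of all genes) and 1 lower in *Ahr*+/- skin (9.09%, near the 9.05% of all genes). *Pdpr* was lower in both, at -1.04 in *Ahr*-/- and -0.74 in *Ahr*+/- skin, the *Ahr*+/- call being lost without IMQ-treated *Ahr*+/- replicate 1 (-0.66, adjusted p = 0.0642) and as the mean over its probe sets (-0.43, adjusted p = 0.115).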

How the data were processed

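Biotin-labelled RNA from whole skin was hybridised to 12 Affymetrix mouse genome arrays. The labels call the 3 arrays of each group biological replicates. The p-values weigh a difference against the spread between replicates, for which each gene has 1 estimate shared by all 4 groups. Leaving out an array of 1 group can therefore change calls in a comparison of other groups. What the authors deposited is a log2 signal for each probe set, made with RMA (background correction, quantile normalization over the arrays, summary of probes) in affy, both named in the submitters' notes without a version. RMA forces all arrays to 1 distribution and compresses dim signals; the number of arrays limits the precision.

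Of 45101 probe sets, 34945 were annotated to a single gene; control sets (64), sets of several genes (932) and sets without a symbol (9160) were left out. For each of 18193 genes the set with the highest mean was kept. lmFit and eBayes estimated 1 mean for each of 4 groups (limma 3.58.1, R 4.3.3; 8 residual and 4.44 prior degrees of freedom), with Benjamini-Hochberg adjustment over all genes in each of 5 comparisons. A call needed an adjusted p under 0.05 together with a change of 1.5-fold or more. limma was used rather than the study's rank product, which gives no SE and no test of the difference between responses; the rank product is an alternative. The fit was tested on simulated data. Replicate numbers did not pair the arrays: 7 of 18 same-numbered pairs correlated above 0.1.

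The members and gene lists were chosen with earlier results of these data known. Array values were given for *Hif1a*, *Vegfa* and called members. From each other list at most 3 genes per comparison were named, mainly by size of change, with *Gapdh*, *Arnt*, *Epas1* and *Vhl* always. Some called genes of these lists are therefore not named. Promoters came from RefSeq.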

Additional observations from a re-analysis of the deposited data

Results flagged for a closer look

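Among the genes named here, 3 had a response to IMQ that differed between the genotypes by the test of the difference itself. The *Ahr*-/- response exceeded the *Ahr*+/- response by 2.51 for *Slc2a3*, by 0.95 for *Bhlhe40* and by 1.97 for *Slc2a6*, on the log2 scale (adjusted p = 0.0328, 0.0451 and 0.028 from limma). In each case all 3 IMQ-treated *Ahr*-/- arrays were above the 9 other arrays. The *Slc2a6* difference was lost without any 1 of 6 arrays, all 3 untreated *Ahr*-/- replicates, IMQ-treated *Ahr*+/- replicates 2 and 3 and IMQ-treated *Ahr*-/- replicate 1 (1.91 to 2.01, adjusted p = 0.0575 to 0.0943 from limma). With the *Gapdh* 3′ to 5′ difference as a covariate none of the 3 differences was called, at 1.97 for *Slc2a3*, 0.87 for *Bhlhe40* and 1.27 for *Slc2a6* (adjusted p = 0.374, 0.369 and 0.346 from limma). The *Bhlhe40* difference was also lost with replicate number as a block (adjusted p = 0.0577 from limma). With groups of 3 arrays, single arrays were not tested as outliers.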

How the results depend on the processing

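Of 32 called values of members, none changed sign under 27 alternatives. In all of them but the rank product 15 were kept, without each array in turn 24, and in the rank product 3. The rank product called a gene at an estimated share of false positives under 0.01, a cutoff unlike limma's adjusted p under 0.05. The array left out moved the number of members called higher between 15 and 18 in *Ahr*-/- skin and between 7 and 11 in *Ahr*+/- skin after IMQ, the number called lower between 1 and 2 in each, the number higher in treated *Ahr*-/- against treated *Ahr*+/- skin between 1 and 4, and the number with a differing response between 0 and 2; no member was ever called lower between the treated genotypes, or called between the untreated ones. The rank product called 1 member higher and 0 lower in each genotype after IMQ, and 1 higher between the treated genotypes. Of all 18193 genes it called 190 higher and 157 lower in *Ahr*-/- skin and 142 higher and 74 lower in *Ahr*+/- skin. Between the treated genotypes it called 122 higher and 84 lower. With the third IMQ-treated *Ahr*-/- array alone, an alternative chosen after seeing the data, 10 members were higher and 0 lower in *Ahr*-/- skin, and 0 were called between the treated genotypes or for the difference between responses. The *Gapdh* covariate gave 0 lower in *Ahr*-/- skin, 0 between the treated genotypes and 0 for the difference, and the beta-actin covariate gave 1 and 0 for the last 2. With the third array alone or either covariate, fewer genes of any kind were called after IMQ in *Ahr*-/- skin than in the main fit. Fewer were also called between the treated genotypes and for the difference, so a 0 there says little about the members. Between the treated genotypes the *Gapdh* covariate called 27 of all genes higher and 0 lower, and beta-actin 104 and 24. For the difference these counts were 11 and 1 with *Gapdh*, and 13 and 1 with beta-actin. Array weights gave 7 higher between the treated genotypes and 5 differing responses. They also raised the counts over all 18193 genes, to 996 higher and 1023 lower between the treated genotypes. For the difference of the responses they gave 930 positive and 1166 negative. Without a fold minimum 3 members were lower in *Ahr*-/- skin, and at an adjusted p under 0.01 there were 0 lower in *Ahr*-/- skin and 0 differing responses. Testing all probe sets, also chosen after seeing the data, left 1 differing response. The replicate block left 1 differing response, *Slc2a3*, and kept 31 of the 32 called values, *Bhlhe40* being lost (adjusted p = 0.0577); it also called *Hk2* in *Ahr*-/- skin (adjusted p = 0.0342) and lost *Hk3* in both genotypes and *Pfkfb2* and *Slc2a5* in *Ahr*+/- skin; same-numbered arrays correlated between -0.18 and 0.32, so the numbers were not used as pairs. The cause of these moves was not tested. The rank product was not run for the difference between responses, for which it has no form. With 3 arrays per group, 2 of them with a high *Gapdh* 3′ to 5′ difference in IMQ-treated *Ahr*-/- skin, comparisons of the genotypes are the least certain. *Slc16a3* is limited by its low signal. The untreated signals of *Car9* (5.28 to 5.72) and *Ankrd37* (5.76 to 6.45) were also low, which limits the sizes of their rises.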
